A study of Mus musculus with 40 samples.

Results

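The 8 genes described here carry vitamin A through the gut and liver, and were taken by name from a table of 15958 genes measured in duodenum, ileum and liver of mice with a shortened bowel. All 8 were in the table. *Bco1* cleaves β-carotene into retinal, *Isx* is a homeobox repressor of the intestine, *Rbp2* and *Lrat* bind and esterify retinol in absorptive cells, *Rbp4* carries retinol in blood, *Aldh1a1* and *Aldh1a2* oxidize retinal to retinoic acid, and *Rarb* is a nuclear receptor for retinoic acid. Male C57BL/6 wild-type mice had a sham operation or a small bowel resection (SBR) at 8 weeks of age, with 50 to 60% of the small bowel removed per the labels, while the study's methods state a larger share. From 3 weeks after surgery they received vehicle or the gut-restricted LXR agonist WUSTL0717 at 30 mg/kg each day for 7 weeks. Sham Vehicle, SBR Vehicle and SBR WUSTL0717 had 3, 4 and 4 libraries in duodenum, 3, 4 and 4 in ileum, and 5, 8 and 5 in liver, 40 in all. By the study's methods the sham operation was a cut and rejoining of the ileum, all mice took a liquid diet, and the ileum sampled lay beyond the anastomosis. No sham mice received WUSTL0717, so the compound was compared only within resected mice. Libraries were ribosomal RNA-depleted bulk RNA-seq.

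Vitamin A enters the enterocyte as retinol or as carotenoids. SCARB1 and CD36 take up carotenoids, BCO1 splits β-carotene into retinal, and retinal is reduced to retinol, bound by RBP2 and esterified by LRAT for packing into chylomicrons. Retinoic acid made from retinal by the ALDH1A enzymes acts through RAR and RXR receptors, which bind spaced pairs of a short DNA core. In the intestine retinoic acid is known to induce *Isx*, and ISX is known to repress *Bco1* and *Scarb1*, a feedback that lowers vitamin A production. In liver, stellate cells store retinyl esters made by LRAT, and hepatocytes secrete RBP4 bound to retinol. LXRs are oxysterol receptors that pair with RXR.

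Every value below is a deposited log2(TPM + 1) value after the authors' batch correction (ComBat), and a difference of 1 is a doubling on that scale. The study's methods describe ComBat as applied to batch effects between experimental groups, and gut and liver samples carry different batch numbers. The correction shifted and may have rescaled each gene in each batch, so levels were compared only within the gut or within liver, and levels of different members were not set against each other. Sequencing depth is unknown. Median values per library ran from 2.13 to 3.09 in duodenum, from 3.18 to 3.82 in ileum and from 3.05 to 3.77 in liver, with the lowest in duodenal SBR Vehicle libraries. Duodenum and ileum separated by their regional genes, with 4 of 4 ileal genes called higher in ileum in each of the 3 groups (3 of 4 in both resected groups after centring), and 3 of 5 duodenal genes called lower in Sham Vehicle and 4 of 5 in each resected group. Of all genes, 14.6% were called between the regions in Sham Vehicle, 56.9% in SBR Vehicle and 55.9% in SBR WUSTL0717, most of them higher in ileum. As a check of the liver label, the mean of *Alb*, the albumin gene, stood at the 99.6th percentile of the corrected values there, a rank that the correction may have moved. Pancreatic acinar genes were read in every duodenal library, with list means of 3.51 to 7.29 in Sham Vehicle, 1.83 to 6.71 in SBR Vehicle and 4.41 to 7.51 in SBR WUSTL0717, while 7 of 9 stood at or under 0 in every ileal library. Ileal SBR WUSTL0717 replicate 2 stood apart for *Rbp4* and *Aldh1a1*, and liver SBR Vehicle replicate 7 had an acinar list mean of 7.52 against 2.27 to 2.45 in the other 7. Leaving out that liver library lost no call of a member. In bulk tissue, fewer cells of a type and less RNA per cell cannot be told apart.

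Upstream sequence is shown for *Bco1* and *Rarb*, the members whose windows held a paired nuclear receptor core. The 250 bases before each RefSeq start (GRCm38.p6) were searched on both strands for 2 copies of the core AGGTCA or its variants AGTTCA and GGGTCA and also GGTTCA in direct repeat, 1, 2, 4 or 5 bases apart. All 8 members had a window, 10 windows in all, and 2 windows held a repeat. The *Bco1* gene lies at chr8:117095854-117133720 on the plus strand (GRCm38, ENSMUSG00000031845). The stretch below, chr8:117095615-117095853, ends at the base before the annotated gene start, and its capitals mark the cores, here read on the opposite strand.
Bco1 upstream: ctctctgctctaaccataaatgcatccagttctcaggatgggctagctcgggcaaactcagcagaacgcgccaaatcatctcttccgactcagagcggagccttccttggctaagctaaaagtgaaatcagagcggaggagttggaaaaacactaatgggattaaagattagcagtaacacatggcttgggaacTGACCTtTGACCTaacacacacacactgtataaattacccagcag
Read on the minus strand the pair is AGGTCAaAGGTCA, a repeat 1 base apart that lies 56 to 44 bases before the RefSeq start (chr8:117095809-117095821). Such a pair occurred in 0.164% of 32851 windows of all genes. This spacing is the one known for PPAR and RXR pairs. The *Rarb* gene spans chr14:16430839-16819156 on the minus strand (ENSMUSG00000017491), and its window begins within the gene, in front of an internal start. Its pair lies 53 to 37 bases before that start, at chr14:16575513-16575529, where other transcripts of the gene have annotated 5′ UTR sequence.
Rarb site: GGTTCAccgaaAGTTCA
This repeat, 5 bases apart, has the spacing known for RAR and RXR pairs, and occurred in 0.0883% of windows. Repeats 2 and 4 bases apart, the latter the spacing known for LXR and RXR, occurred in 0.174% and 0.067% of windows and in none of the 10 member windows. A match is a description of these letters and not a test of binding.

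A gene passed the test, and is called, at a limma Benjamini-Hochberg adjusted p under 0.05 over all genes tested. In duodenum 0 of 7 members tested were called for SBR Vehicle against Sham Vehicle (1 at an unadjusted p under 0.05), where 0% of all genes were called and 16.1% had an unadjusted p under 0.05. With library weights *Aldh1a2* was called there, in a fit that called 2579 of 15069 genes. WUSTL0717 against SBR Vehicle called 1 of 7 in duodenum (background 0.272%, unadjusted 5.28%), and SBR WUSTL0717 against Sham Vehicle also 1 of 7 (0.737%, unadjusted 16.8%). In ileum the same comparisons called 1 of 8 (0.349%, unadjusted 8.45%), 0 of 8 (1 at an unadjusted p under 0.05, background 0.0698%, unadjusted 6.82%) and 2 of 8 (2.16%, unadjusted 14.1%). In liver they called 5 of 7 (41.9%, unadjusted 50.1%), 1 of 7 (4.12%, unadjusted 17.2%) and 3 of 7 (28.7%, unadjusted 43.9%), so the liver counts after SBR stand against a high background. The counts of 5 and 3 include *Rarb*, which met the filter, a tissue mean of at least 1, only through the resected groups (sham mean 0.92). *Rbp2*, also among the 7, was at its lowest value in 14 of 18 liver libraries. The median of all genes moved by -0.36 in duodenum and by 0.25 in liver for SBR Vehicle against Sham Vehicle, and by -0.32 and 0.27 for SBR WUSTL0717 against Sham Vehicle. In the other within-tissue comparisons it moved by at most 0.07. Members were therefore also tested after each library was centred on its median, and that value is given where it changes a call or a direction. In liver the genes called after SBR were 5954 higher and 712 lower as deposited and 3234 and 4589 after centring, those for WUSTL0717 against SBR Vehicle were 231 and 424, then 1838 and 1294, and those for SBR WUSTL0717 against Sham Vehicle were 4417 and 144, then 1694 and 1423. The labels do not say that libraries came from separate mice, and p-values measure the spread between libraries. Comparisons that share a group are given side by side and are not independent.

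**Figure D1:**
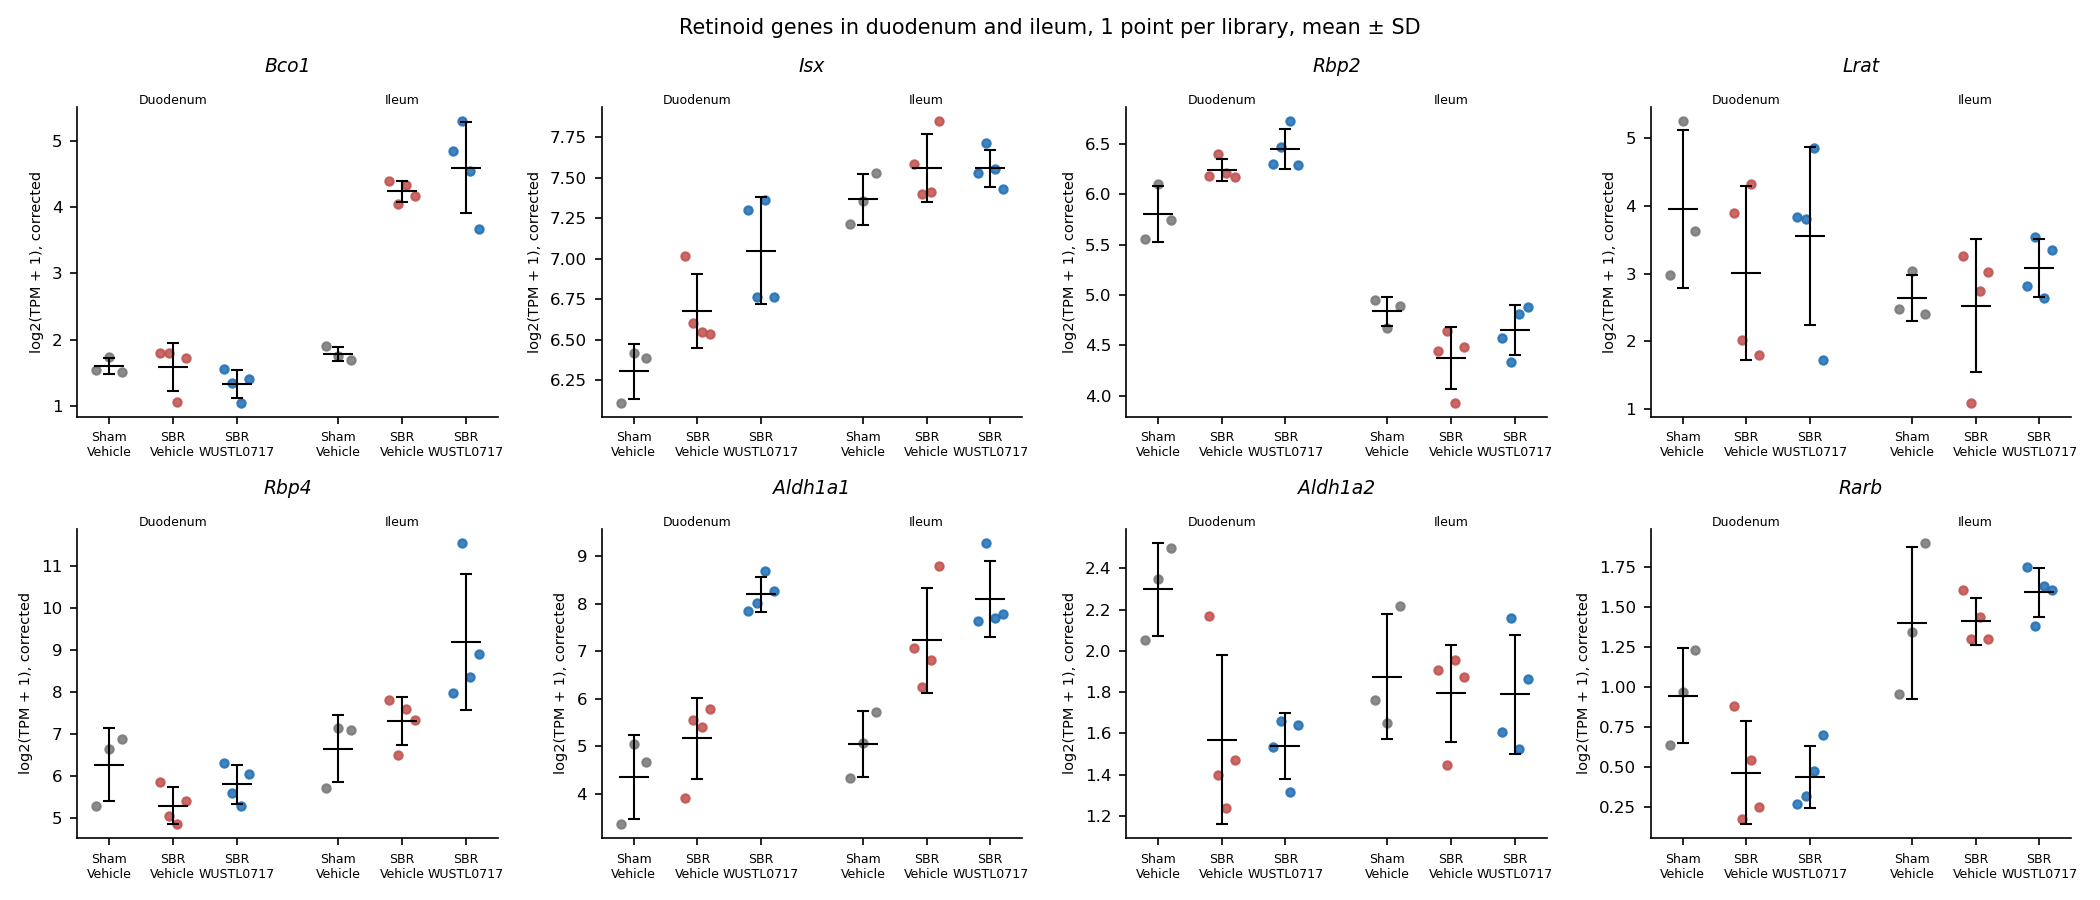
log2(TPM + 1) after batch correction (vertical axis, own range in each panel) of the 8 genes in each duodenal and ileal library by group, with the group mean and SD as bars. The 8 ileal Bco1 points after SBR lie between 3.67 and 5.30, above the 3 sham points at 1.69 to 1.90, and the 4 duodenal Aldh1a1 points with WUSTL0717 lie between 7.84 and 8.68, above all other duodenal points.

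*Bco1* rose in ileum after SBR and not detectably in duodenum. Its ileal values were 1.90, 1.75 and 1.69 in Sham Vehicle, 4.39, 4.04, 4.34 and 4.17 in SBR Vehicle, and 4.85, 5.30, 4.54 and 3.67 in SBR WUSTL0717. Every resected library was above every sham library, and the WUSTL0717 libraries overlapped the SBR Vehicle ones. The difference of SBR Vehicle from Sham Vehicle was 2.45 ± 0.34 (SE), 5.48-fold, with limma adjusted p = 0.0119. It was 2.81 for SBR WUSTL0717 against Sham Vehicle (limma adjusted p = 0.00219, and 0.111 in an unmoderated test) and 0.36 ± 0.31 for WUSTL0717 against SBR Vehicle (limma adjusted p = 0.935). The SBR call was lost without Sham Vehicle replicate 2 or 3 (limma adjusted p = 0.0805 and 0.0509), with differences of 2.44 and 2.41. In duodenum the values were 1.55, 1.74 and 1.51 in Sham Vehicle, 1.80, 1.80, 1.05 and 1.73 in SBR Vehicle, and 1.55, 1.35, 1.05 and 1.40 in SBR WUSTL0717. All 3 duodenal groups overlapped, and the difference after SBR was -0.01 ± 0.29 (limma adjusted p = 0.994), or 0.40 after centring (limma adjusted p = 0.556).

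The 2 regions differed in the response of *Bco1* to SBR. The ileal minus the duodenal difference was 2.46 ± 0.43 (limma interaction, adjusted p = 0.0277), and it was 1 of 12 genes called among 15923, a background of 0.0754% (unadjusted 13.8%). Leaving out single libraries kept it between 2.28 and 2.53, but 10 of the 14 left-out libraries moved the limma adjusted p above 0.05, the highest being 0.0959 without ileal Sham Vehicle replicate 3. The libraries were ileal Sham Vehicle 1, 2 and 3, ileal SBR Vehicle 1, 3 and 4, duodenal Sham Vehicle 1, 2 and 3, and duodenal SBR Vehicle 3. Beside it, 2 of 4 regional ileal genes were called higher in ileum after SBR (0.349% of all genes called), with list means of 4.95 to 5.14 in Sham Vehicle and 6.24 to 6.36 in SBR Vehicle. Ileal enterocyte list means were 7.11 to 7.17 and 6.97 to 7.33, with none of the 6 markers called. The part of these in the *Bco1* difference was not tested.

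In liver *Bco1* also rose after SBR, by 0.88 ± 0.20 (limma adjusted p = 0.00156), or by 0.57 after centring (limma adjusted p = 0.00163). Sham Vehicle libraries were at 2.71, 2.30, 2.43, 2.71 and 2.75, and the 8 SBR Vehicle libraries had a lowest value of 2.43, a median of 3.55 and a highest of 3.94. The groups overlapped through SBR Vehicle replicate 2 at 2.43, which was also the lowest of its group for *Lrat*, *Rarb* and *Rbp4*. SBR WUSTL0717 libraries were at 3.30, 3.07, 3.14, 3.75 and 3.29, all above the sham libraries, and differed from Sham Vehicle by 0.73 ± 0.22 (limma adjusted p = 0.0201), or by 0.43 after centring (limma adjusted p = 0.048). The deposited-scale call was lost without Sham Vehicle replicate 2 or SBR WUSTL0717 replicate 4 (limma adjusted p = 0.0598 and 0.0701). Against SBR Vehicle the difference was -0.15 ± 0.20 (limma adjusted p = 0.796).

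Neither SBR nor WUSTL0717 gave a called change of *Isx* within a region. Duodenal values were 6.11, 6.42 and 6.38 in Sham Vehicle, 7.02, 6.60, 6.55 and 6.54 in SBR Vehicle, and 7.30, 6.76, 7.36 and 6.77 in SBR WUSTL0717. The resected duodenal libraries all lay above the sham ones, with differences of 0.37 ± 0.41 for SBR (limma adjusted p = 0.648) and 0.37 ± 0.38 for WUSTL0717 (limma adjusted p = 1). Ileal values were 7.21, 7.36 and 7.53 in Sham Vehicle, 7.58, 7.40, 7.41 and 7.85 in SBR Vehicle, and 7.53, 7.71, 7.56 and 7.43 in SBR WUSTL0717. These groups overlapped, and the ileal differences were 0.19 for SBR and -0.0035 for WUSTL0717 (limma adjusted p = 0.969 and 1.00). Duodenal enterocyte list means were 5.21 to 5.85 in Sham Vehicle, 6.02 to 6.45 in SBR Vehicle and 6.14 to 6.50 in SBR WUSTL0717, with 0 of 6 called after SBR (2 at an unadjusted p under 0.05) and 0 of 6 with WUSTL0717 against SBR Vehicle (1). For SBR WUSTL0717 against Sham Vehicle 1 of 6 was called higher, as deposited (0.737% of all genes called) and after centring (2.59%). The part of these markers in the values of *Isx* and *Rbp2* was not tested. In liver *Isx* was listed at exactly 0 in all 18 libraries and was not tested.

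Since ISX is known to repress *Bco1* and *Scarb1*, their levels were compared across libraries of each region, 4 relations in all. *Isx* and *Scarb1*, the HDL and carotenoid receptor, were positively related over the 11 duodenal libraries, with Pearson r = 0.78 (permutation p = 0.00498, adjusted 0.0199) and Spearman rho = 0.83 (permutation p = 0.0026, adjusted 0.0104). Without the 2 libraries farthest from the median of *Isx*, both SBR WUSTL0717, r was 0.72 over 9, and for deviations from the group means it was 0.52. The permutations ignored the groups, so their p also takes in differences between group means, and the r of deviations was not tested. The other relations did not pass. *Isx* with *Bco1* gave r = -0.28 and rho = -0.16 in duodenum (permutation p = 0.41 and 0.632, adjusted 0.41 and 0.632), and r turned to 0.06 without the 2 farthest libraries and to 0.35 after centring. In ileum r was 0.39 and rho 0.38 with *Scarb1* (permutation p = 0.23 and 0.248, adjusted 0.307 and 0.331), r was 0.69 without the 2 farthest libraries, and it was 0.22 for deviations from the group means. Ileal *Bco1* fell into separate sham and resected clusters, so no r over all ileal libraries is given for it, and r for deviations from the group means was 0.32. *Scarb1* itself had no called difference in duodenum, ileum or liver, with duodenal means of 5.93 ± 0.31 (SD, n = 3), 6.06 ± 0.32 (n = 4) and 6.64 ± 0.23 (n = 4) in the 3 groups.

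**Figure D2:**
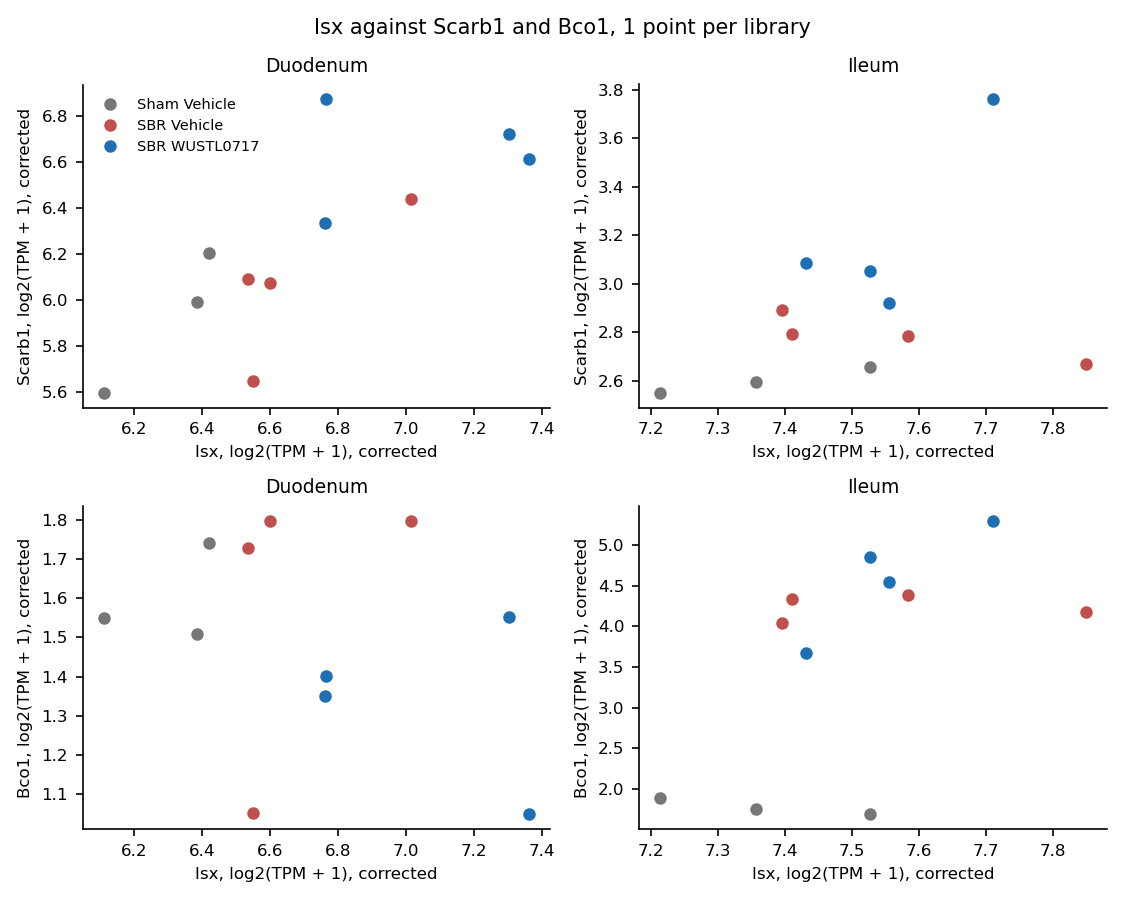
Isx (horizontal axis) against Scarb1 (upper row) or Bco1 (lower row), both as corrected log2(TPM + 1), 1 point per library and coloured by group, in duodenum and ileum. Duodenal Scarb1 was higher where Isx was higher (r = 0.78), while ileal Bco1 falls into a sham cluster at 1.69 to 1.90 and a resected cluster at 3.67 to 5.30.

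*Rbp2* was higher in duodenum than in ileum in every group, and its position along the bowel was clearer than any effect of surgery or compound. Duodenal values were 5.56, 6.10 and 5.75 in Sham Vehicle, 6.18, 6.40, 6.21 and 6.17 in SBR Vehicle, and 6.30, 6.47, 6.73 and 6.29 in SBR WUSTL0717. Ileal values were 4.95, 4.67 and 4.89, then 4.45, 4.64, 3.93 and 4.49, then 4.57, 4.33, 4.81 and 4.88. No ileal library reached the lowest duodenal one. Within duodenum the resected groups lay above Sham Vehicle (0.44 ± 0.39 for SBR, limma adjusted p = 0.569), and within ileum the SBR Vehicle group lay under it (-0.46 ± 0.26, limma adjusted p = 0.739). The difference between these responses was -0.90 ± 0.40 (limma interaction, adjusted p = 0.345) and did not pass. In liver 14 of 18 libraries shared the lowest value of 5.15 and the highest was 5.50. No liver comparison of *Rbp2* passed.

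*Lrat* rose in liver after SBR and varied widely between intestinal libraries. Its liver values were 3.34, 2.91, 3.33, 3.50 and 3.42 in Sham Vehicle, had a lowest of 3.26, a median of 3.95 and a highest of 4.30 in SBR Vehicle, and were 3.88, 3.83, 3.65, 4.15 and 3.92 in SBR WUSTL0717. The SBR Vehicle and sham libraries overlapped, through SBR Vehicle replicates 2 and 3, and the WUSTL0717 libraries all lay above sham. SBR Vehicle exceeded Sham Vehicle by 0.59 ± 0.16 (limma adjusted p = 0.00697), or by 0.29 after centring (limma adjusted p = 0.0119), and SBR WUSTL0717 by 0.58 ± 0.18 (limma adjusted p = 0.0236), or by 0.28 after centring (limma adjusted p = 0.0495). The latter deposited-scale call was lost without Sham Vehicle replicate 2 or SBR WUSTL0717 replicate 4 (limma adjusted p = 0.0775 and 0.0742). WUSTL0717 against SBR Vehicle gave -0.01 ± 0.16 (limma adjusted p = 0.99). Duodenal *Lrat* ran from 1.73 to 5.26 and ileal *Lrat* from 1.09 to 3.54, all groups overlapped, and no comparison within a region passed. Between regions *Lrat* was called lower in ileum in Sham Vehicle only with library weights (-1.77, limma adjusted p = 0.0405, against 0.233 without them).

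Stellate cells, where liver LRAT acts, were represented by 9 marker genes, of which 6 rose and 1 fell in liver after SBR, with list means of 3.82 to 4.21 in Sham Vehicle, 4.11 to 4.84 in SBR Vehicle and 4.38 to 4.79 in SBR WUSTL0717. *Pdgfrb*, a growth factor receptor of stellate cells and pericytes, rose by 1.84, and *Hhip*, a hedgehog-binding protein, fell by 0.61. Markers of other cells moved too: 6 of 6 fibroblast and stromal genes and 6 of 6 cholangiocyte genes rose after SBR, 2 of 6 hepatocyte genes and 1 of 6 Kupffer cell genes fell, and 4 of 4 dendritic cell genes rose. After centring 5 stellate genes rose and 3 fell, 6 stromal, 6 cholangiocyte and 3 dendritic cell genes rose, and 5 hepatocyte and 4 Kupffer cell genes fell. Beside these counts, 41.9% of all genes were called after SBR on the deposited scale and 49.2% after centring. For WUSTL0717 against SBR Vehicle the shares were 4.12% and 19.7%, with 17.2% at an unadjusted p under 0.05. The list means of stroma were 3.43 to 3.93 in Sham Vehicle and 5.33 to 6.30 in SBR Vehicle, and with WUSTL0717 they were 4.53 to 5.61, with 4 of 6 called lower than in SBR Vehicle. The cholangiocyte list means were 3.06 to 3.81, 5.10 to 5.85 and 4.29 to 5.36, with 5 of 6 called lower with WUSTL0717. Hepatocyte list means were 8.64 to 9.09, 7.59 to 8.70 and 8.63 to 9.10, with 0 of 6 called higher with WUSTL0717 than in SBR Vehicle (3 at an unadjusted p under 0.05), or 3 after centring. Kupffer cell list means were 2.92 to 3.32, 2.02 to 3.72 and 3.10 to 3.62, with 2 of 6 called higher with WUSTL0717 than in SBR Vehicle, or 4 after centring. After the correction a value above 0 in liver does not show that a marker was detected, as the shared lowest value of *Rbp2* shows. The part of these lists in the liver differences of *Bco1*, *Lrat*, *Aldh1a2*, *Rarb* and *Rbp4* was not tested.

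*Rbp4* fell in liver after SBR and was higher with WUSTL0717. Its liver values were 7.90, 7.75, 7.85, 8.01 and 7.81 in Sham Vehicle, had a lowest of 7.18, a median of 7.59 and a highest of 7.78 in SBR Vehicle, and were 7.97, 7.91, 8.15, 7.84 and 7.88 in SBR WUSTL0717. No SBR Vehicle library reached the lowest WUSTL0717 one, and only the SBR Vehicle library at 7.78 lay above a sham library. The gene fell by 0.32 ± 0.10 after SBR (limma adjusted p = 0.0158), and by 0.63 after centring. WUSTL0717 gave 0.41 ± 0.10 above SBR Vehicle (limma adjusted p = 0.028), a call lost without SBR WUSTL0717 replicate 1, 2 or 3 (limma adjusted p = 0.0791, 0.0728 and 0.116) and in an unmoderated test (adjusted p = 0.12). SBR WUSTL0717 and Sham Vehicle differed by 0.09 ± 0.11 (limma adjusted p = 0.545), or by -0.21 after centring (limma adjusted p = 0.0648).

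In ileum the *Rbp4* values were 5.73, 7.15 and 7.09 in Sham Vehicle, 7.81, 6.51, 7.60 and 7.35 in SBR Vehicle, and 7.99, 11.55, 8.35 and 8.89 in SBR WUSTL0717. All 4 WUSTL0717 libraries lay above all others, and replicate 2 was far above the other 3. The difference of 1.88 ± 0.68 from SBR Vehicle did not pass (limma adjusted p = 0.605), nor did 2.54 ± 0.73 from Sham Vehicle (limma adjusted p = 0.106). Without replicate 2 these were 1.09 and 1.75 (limma adjusted p = 0.341 and 0.0954). In the same libraries the hepatocyte list, whose *Apoa1* and *Ttr* are also made by intestine, had means of 7.45 to 8.12 in Sham Vehicle, 7.88 to 9.06 in SBR Vehicle and 8.71 to 10.47 in SBR WUSTL0717, the highest in replicate 2, and its part was not tested. Duodenal *Rbp4* values were 5.29, 6.65 and 6.88, then 5.87, 5.05, 4.87 and 5.40, then 6.31, 5.60, 5.28 and 6.06, and these groups overlapped. The duodenal differences were -0.97 ± 0.50 for SBR and 0.51 ± 0.46 for WUSTL0717 (limma adjusted p = 0.343 and 1).

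*Aldh1a1* rose in duodenum with WUSTL0717. Duodenal values were 3.36, 5.04 and 4.67 in Sham Vehicle, 3.90, 5.54, 5.41 and 5.79 in SBR Vehicle, and 7.84, 8.01, 8.68 and 8.26 in SBR WUSTL0717. The WUSTL0717 libraries lay above every other duodenal library, and the other 2 groups overlapped. The difference of WUSTL0717 from SBR Vehicle was 3.03 ± 0.52, 8.19-fold (limma adjusted p = 0.0238), and that from Sham Vehicle was 3.84 ± 0.56 (limma adjusted p = 0.00622). Neither passed in an unmoderated test of the 2 groups alone (adjusted p = 0.156 and 0.109). Leaving out single libraries kept the first between 2.61 and 3.24, and the call held only without SBR WUSTL0717 replicate 1. It was lost without SBR Vehicle replicate 1, 2, 3 or 4 (limma adjusted p = 0.0606, 0.0601, 0.0772 and 0.0532) and without SBR WUSTL0717 replicate 2, 3 or 4 (limma adjusted p = 0.0613, 0.125 and 0.0989), and after centring (2.99, limma adjusted p = 0.0618). The acinar list means overlapped between these groups, as given above, and 9 of its 9 genes were higher with WUSTL0717 with none called, and their part was not tested. *Aldh1a7*, which lies on the same chromosome at chr19:20692953-20727562 and is a near copy of *Aldh1a1* (chr19:20492715-20643465), moved alike, with a WUSTL0717 difference of 2.47 ± 0.65 (limma adjusted p = 0.231) and one from Sham Vehicle of 3.65 ± 0.70 (limma adjusted p = 0.0266), the latter lost in 5 of 7 fits that left out a library. How uniquely aligned reads divided between the copies is uncertain.

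In ileum *Aldh1a1* was higher after SBR with or without the compound. Its values were 4.33, 5.07 and 5.73 in Sham Vehicle, 7.07, 6.24, 6.82 and 8.79 in SBR Vehicle, and 7.63, 9.28, 7.71 and 7.78 in SBR WUSTL0717. Every resected library lay above every sham library. SBR Vehicle differed from Sham Vehicle by 2.19 ± 0.60, which did not pass (limma adjusted p = 0.197) except with library weights (2.09, limma adjusted p = 0.0398), and SBR WUSTL0717 by 3.06 ± 0.60, which did (limma adjusted p = 0.0238). The latter call was lost without Sham Vehicle replicate 1 or 2 or SBR WUSTL0717 replicate 2 or 3 (limma adjusted p = 0.13, 0.0931, 0.0501 and 0.0502), with a replicate block (2.85, adjusted p = 0.091) and in an unmoderated test (adjusted p = 0.164). WUSTL0717 against SBR Vehicle gave 0.87 ± 0.55 (limma adjusted p = 0.875). The ileal minus the duodenal response to WUSTL0717 was -2.16 ± 0.78, which did not pass (limma interaction, adjusted p = 1). For this difference limma called 0 of 8 members, with 1 under an unadjusted p of 0.05, beside 0.0251% of all genes called and 3.33% under it unadjusted.

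Liver *Aldh1a1* did not pass in any comparison, with means of 7.44 ± 0.29 (SD, n = 5) in Sham Vehicle, 7.18 ± 0.41 (n = 8) in SBR Vehicle and 7.64 ± 0.12 (n = 5) in SBR WUSTL0717. After centring, the SBR difference of -0.26 became -0.57 (limma adjusted p = 0.000297) and the WUSTL0717 difference of 0.46 became 0.47 (limma adjusted p = 0.00554), and both passed.

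*Aldh1a2*, an enzyme of stromal and dendritic cells in the gut, passed only in liver within a tissue, except with library weights in duodenum. In duodenum it was at 2.05, 2.35 and 2.50 in Sham Vehicle, 2.17, 1.40, 1.24 and 1.47 in SBR Vehicle, and 1.54, 1.66, 1.31 and 1.64 in SBR WUSTL0717. No duodenal comparison passed without library weights, with -0.73 ± 0.31 for SBR (limma adjusted p = 0.291) and -0.33 after centring. SBR WUSTL0717 lay under Sham Vehicle without overlap, by -0.76 ± 0.31 (limma adjusted p = 0.259), and by -0.40 after centring. With library weights these were -0.84 and -0.82 and both passed (limma adjusted p = 0.0378 and 0.0493), the former in the fit with many calls given above. Stromal list means in duodenum were 3.67 to 4.49 in Sham Vehicle and 2.61 to 3.97 in SBR Vehicle. Dendritic cell list means there were 3.02 to 3.90 in Sham Vehicle, 2.64 to 4.00 in SBR Vehicle and 2.23 to 2.97 in SBR WUSTL0717, and the part of either list was not tested. Ileal values lay between 1.44 and 2.22 in all 3 groups, with differences of -0.08 and -0.01 for SBR and WUSTL0717. In liver it rose after SBR by 0.41 ± 0.13 (limma adjusted p = 0.0169), from 1.67, 1.44, 1.49, 1.80 and 1.49 in Sham Vehicle to a lowest of 1.67, a median of 1.94 and a highest of 2.54, and the groups overlapped. That call was lost without Sham Vehicle replicate 2 (limma adjusted p = 0.0503) and after centring (0.11, limma adjusted p = 0.536). With WUSTL0717 the liver values were 1.69, 1.65, 1.61, 2.06 and 1.95, not detectably different from either group.

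*Rarb* rose in liver after SBR. Its values were 0.97, 0.71, 0.91, 0.99 and 1.01 in Sham Vehicle, had a lowest of 1.04, a median of 1.61 and a highest of 1.87 in SBR Vehicle, and were 1.33, 1.47, 1.66, 1.54 and 1.42 in SBR WUSTL0717. Every resected library lay above every sham library. The sham mean of 0.92 was under the filter of 1, so the gene was tested only through the resected groups where it was high. The differences from Sham Vehicle were 0.62 ± 0.12 for SBR Vehicle (limma adjusted p = 0.000461) and 0.57 ± 0.14 for SBR WUSTL0717 (limma adjusted p = 0.00582), and were 0.32 and 0.27 after centring (limma adjusted p = 0.00414 and 0.0487). Without the filter the limma adjusted p were 0.000458 and 0.0058. WUSTL0717 against SBR Vehicle gave -0.05 ± 0.12 (limma adjusted p = 0.897). In duodenum the mean was under 1 and the gene was not tested, at 0.64, 0.97 and 1.23 in Sham Vehicle, 0.88, 0.17, 0.55 and 0.25 in SBR Vehicle, and 0.27, 0.32, 0.47 and 0.70 in SBR WUSTL0717. Ileal values ran from 0.95 to 1.91 and no ileal comparison passed. *Rarb* overlaps *Top2b* on the other strand, and reads of overlapping genes are hard to assign.

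**Figure D3:**
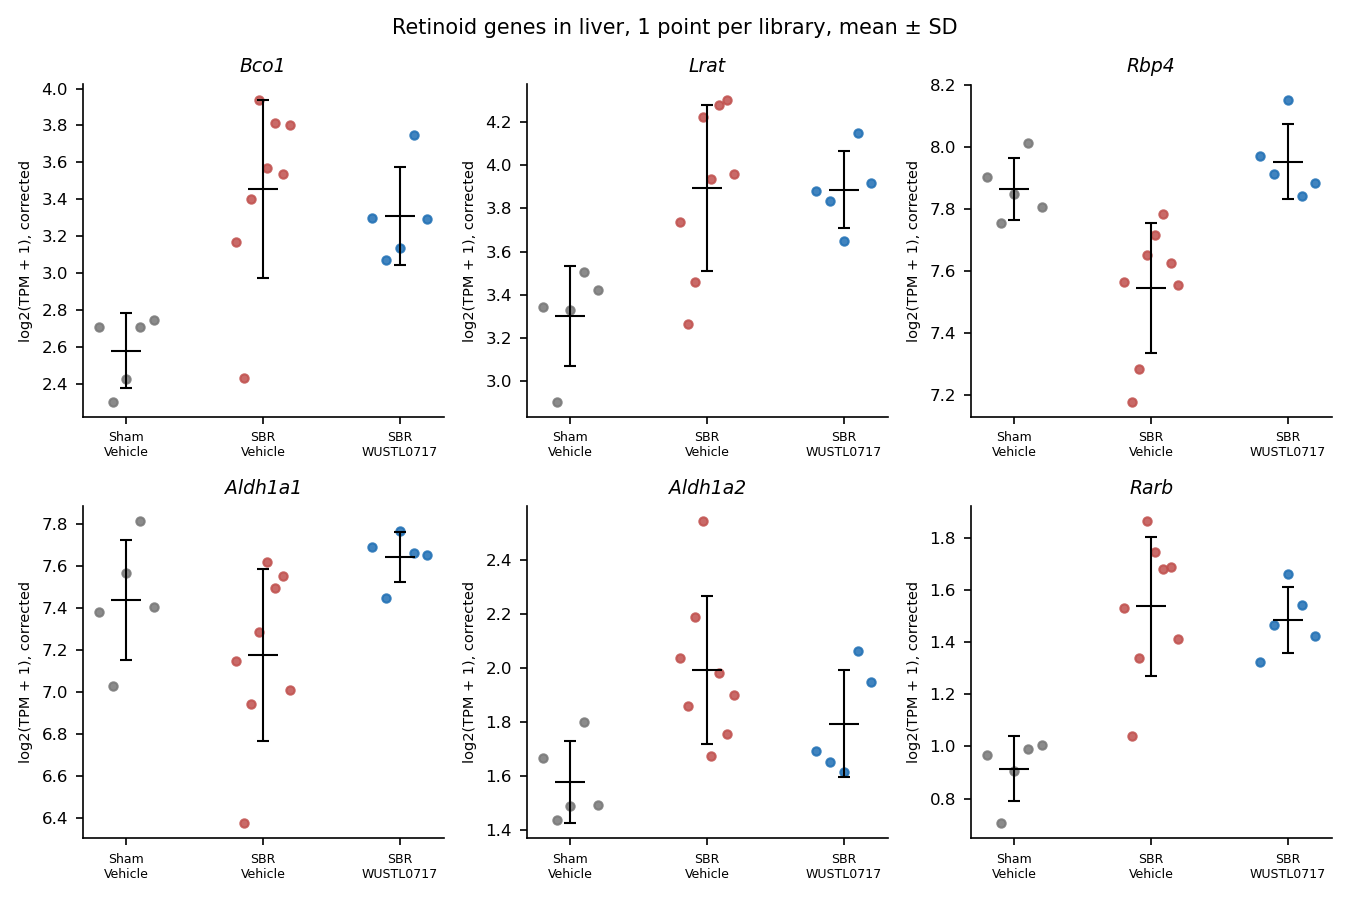
log2(TPM + 1) after batch correction (vertical axis, own range in each panel) of 6 genes in each liver library by group, with the group mean and SD as bars. The 13 resected Rarb points lie between 1.04 and 1.87, above the 5 sham points at 0.71 to 1.01, and the 5 WUSTL0717 Rbp4 points lie between 7.84 and 8.15, above the 8 SBR Vehicle points.

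**Figure D4:**
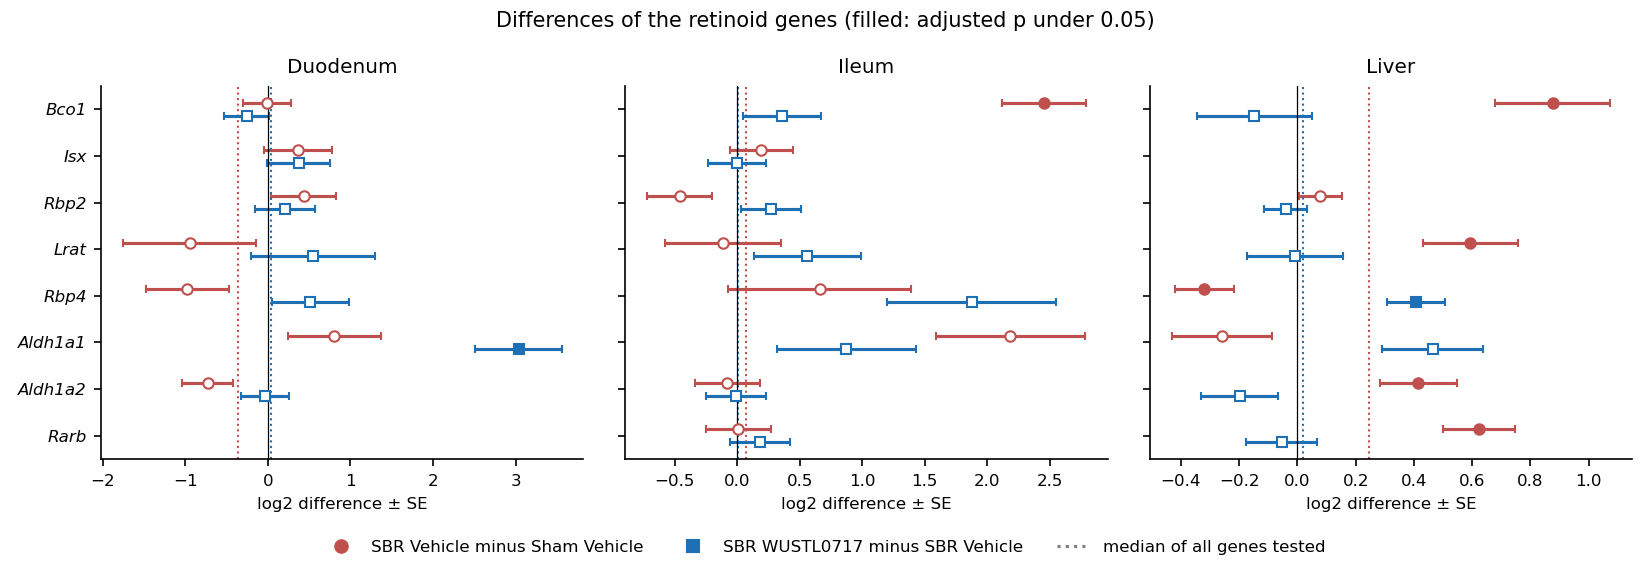
log2 difference (horizontal axis, own range in each panel) with its standard error for each gene tested in duodenum, ileum and liver, for SBR Vehicle minus Sham Vehicle (circles) and SBR WUSTL0717 minus SBR Vehicle (squares), filled where limma adjusted p was under 0.05, with dotted lines at the median of all genes. The filled points are ileal Bco1 (2.45), duodenal Aldh1a1 with WUSTL0717 (3.03), and in liver Bco1, Lrat, Aldh1a2 and Rarb above 0, Rbp4 under 0 after SBR and above 0 with WUSTL0717.

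Between the regions of the bowel, the members split. In Sham Vehicle 2 of 8 were called for ileum against duodenum (background 14.6%), *Isx* higher in ileum by 1.06 ± 0.32 (limma adjusted p = 0.0287) and *Rbp2* lower, at -0.97 ± 0.30 (limma adjusted p = 0.0346). After centring *Isx* was 0.61 higher and did not pass (limma adjusted p = 0.166), while *Rbp2* was at -1.42 and passed (limma adjusted p = 0.00985), as did *Aldh1a2* at -0.88 (limma adjusted p = 0.0188). The deposited-scale calls of *Isx* and *Rbp2* each held in 1 of 6 fits that left out a library, *Isx* without ileal replicate 1 and *Rbp2* without duodenal replicate 1, and both were lost with a replicate block (limma adjusted p = 0.0532 and 0.0616). In SBR Vehicle 6 of 8 were called (56.9%), and in SBR WUSTL0717 4 of 8 (55.9%). *Bco1* was 2.64 ± 0.28 higher in ileum in SBR Vehicle and 3.25 ± 0.28 in SBR WUSTL0717, and 1.71 and 2.37 after centring, past the threshold each time. *Rbp2* was lower in ileum, at -1.86 ± 0.26 and -1.80 ± 0.26, and *Rbp4* higher by 2.02 ± 0.60 and 3.38 ± 0.60, the former 1.09 and not past the threshold after centring (limma adjusted p = 0.106). *Isx* (0.88), *Aldh1a1* (2.07) and *Rarb* (0.95) were called higher in ileum in SBR Vehicle and *Rarb* (1.16) in SBR WUSTL0717, and none of these passed after centring, when *Isx* was at -0.05 and *Rarb* at 0.02 and 0.27. Duodenal *Rarb* means of 0.44 to 0.95 were under the filter, and the gene entered this fit, and the counts of 6 and 4, through ileum, where it was high. Without the filter its limma adjusted p were 0.00165 and 0.000357. In SBR WUSTL0717 *Isx* passed only in an unmoderated test (0.51, adjusted p = 0.0119). *Aldh1a2* was 0.22 and 0.25 higher in ileum in the resected groups without a call, and after centring it was lower, at -0.71 and -0.63, and called (limma adjusted p = 0.0144 and 0.0276). The median of all genes was 0.52 to 0.98 higher in ileum across the 3 groups. Genes called higher and lower in ileum numbered 1721 and 610 in Sham Vehicle, 7990 and 1078 in SBR Vehicle and 7759 and 1136 in SBR WUSTL0717, and 843 and 1177, 2310 and 2637, and 2218 and 2519 after centring. Of the 49 other retinoid genes described next, 4 were called higher and 12 lower in ileum in Sham Vehicle, 12 and 13 in SBR Vehicle, and 14 and 13 in SBR WUSTL0717, or 3 and 15, 5 and 21, and 8 and 19 after centring.

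Of 49 other retinoid genes in the table, few were called in the gut on the deposited scale. In duodenum limma called 0 of 45 tested after SBR (8 at an unadjusted p under 0.05, beside 16.1% of all genes, with 0% of all genes called), 1 with WUSTL0717 against SBR Vehicle (0.272% of all genes) and 2 higher against Sham Vehicle (0.737%). After centring the last was 10 higher and 1 lower (2.59% of all genes), and the one before it 2 higher (0.212%). *Cd36*, a fatty acid and carotenoid receptor, was the one called with WUSTL0717: it was at 2.05, 2.89, 3.59 and 3.45 in SBR Vehicle and 5.54, 5.84, 6.24 and 5.62 in SBR WUSTL0717, a difference of 2.81 ± 0.44 (limma adjusted p = 0.0167). Its call was lost without SBR Vehicle replicate 1 or 2 or SBR WUSTL0717 replicate 3 or 4 (limma adjusted p = 0.0533, 0.0563, 0.0872 and 0.0703). *Dhrs4*, a retinal reductase, stood next, at 2.23 ± 0.47 (limma adjusted p = 0.0803). After SBR the smallest p-values were those of *Rdh9* (1.40, limma adjusted p = 0.23), a retinol dehydrogenase, *Dgat1* (1.62, limma adjusted p = 0.26), an acyltransferase that can esterify retinol, and, lower, *Lpl* (-0.77, limma adjusted p = 0.276), lipoprotein lipase, and *Dhrs3* (-2.04, limma adjusted p = 0.278), a retinal reductase. In ileum limma called 0 of 47 after SBR (8 at an unadjusted p under 0.05, 0.349% of all genes called) and 0 of 47 with WUSTL0717 (9, all higher, 0.0698% of all genes called). The shares of all genes at an unadjusted p under 0.05 were 8.45% and 6.82%. SBR gave *Lipa* (1.00), *Aldh1a7* (1.64), *Dhrs9* (-1.49) and *Bco2* (-1.02), and WUSTL0717 gave *Pnpla3* (1.90) and *Rdh16f2* (2.02), none past adjustment (limma adjusted p = 0.139 to 0.454). Against Sham Vehicle, *Aldh1a7* was called in ileum with WUSTL0717, from a mean of 4.22 to 6.92 (limma adjusted p = 0.0296), and the call was lost in 6 of 7 fits that left out a library.

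In liver 14 of the 49 rose and 7 fell after SBR, with a list median of 0.20 beside 0.25 for all genes, and after centring 9 rose and 20 fell. On the deposited scale 41.9% of all genes were called, and 49.2% after centring. The risen genes included *Lpl* (1.80 ± 0.15), *Dhrs9*, a retinol dehydrogenase (1.72 ± 0.32), *Cd36* (1.18 ± 0.20), *Tgm2*, a transglutaminase induced by retinoic acid (1.13 ± 0.15), and *Rarg*, a retinoic acid receptor (1.04 ± 0.13), and these 5 passed after centring too. The fallen genes were *Adh7* (-0.77), *Adh4* (-0.73), *Rdh7* (-0.52) and *Rdh16f2* (-0.65), which act between retinol and retinal, *Bco2* (-0.62), which cleaves carotenoids off centre, *Aldh8a1* (-0.44), a retinal dehydrogenase, and *Rarres1* (-0.66), a retinoid-responsive gene. The calls of *Rdh16f2* and *Rarres1* were lost in 5 and 2 of 13 fits that left out a library. *Pnpla2*, *Lipa*, *Rdh9*, *Aldh1a3*, *Aldh1a7*, *Cyp2s1*, *Rxrg* and *Hic1* rose by 0.30 to 0.80, and leaving out a library lost the call of *Lipa* in 8, of *Cyp2s1* in 7, and of *Aldh1a7* and *Rxrg* in 2 of 13 fits. Of these *Pnpla2*, *Lipa*, *Aldh1a7*, *Cyp2s1* and *Rxrg* did not pass after centring, when *Cyp2s1* was at -0.01. With WUSTL0717 against SBR Vehicle 4 rose and 0 fell: *Rarres1* (0.91 ± 0.21), *Rdh16* (0.62 ± 0.15), a retinol dehydrogenase, *Adh4* (0.57 ± 0.15) and *Bco2* (0.47 ± 0.13), where 4.12% of all genes were called. Leaving out single libraries lost these calls in 3, 2, 5 and 10 of 13 fits. After centring 13 rose and 5 fell, where 19.7% of all genes were called. Against Sham Vehicle, SBR WUSTL0717 called 10 higher and 0 lower, or 8 and 8 after centring (28.7% of all genes called on the deposited scale and 19.6% after centring).

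**Figure D5:**
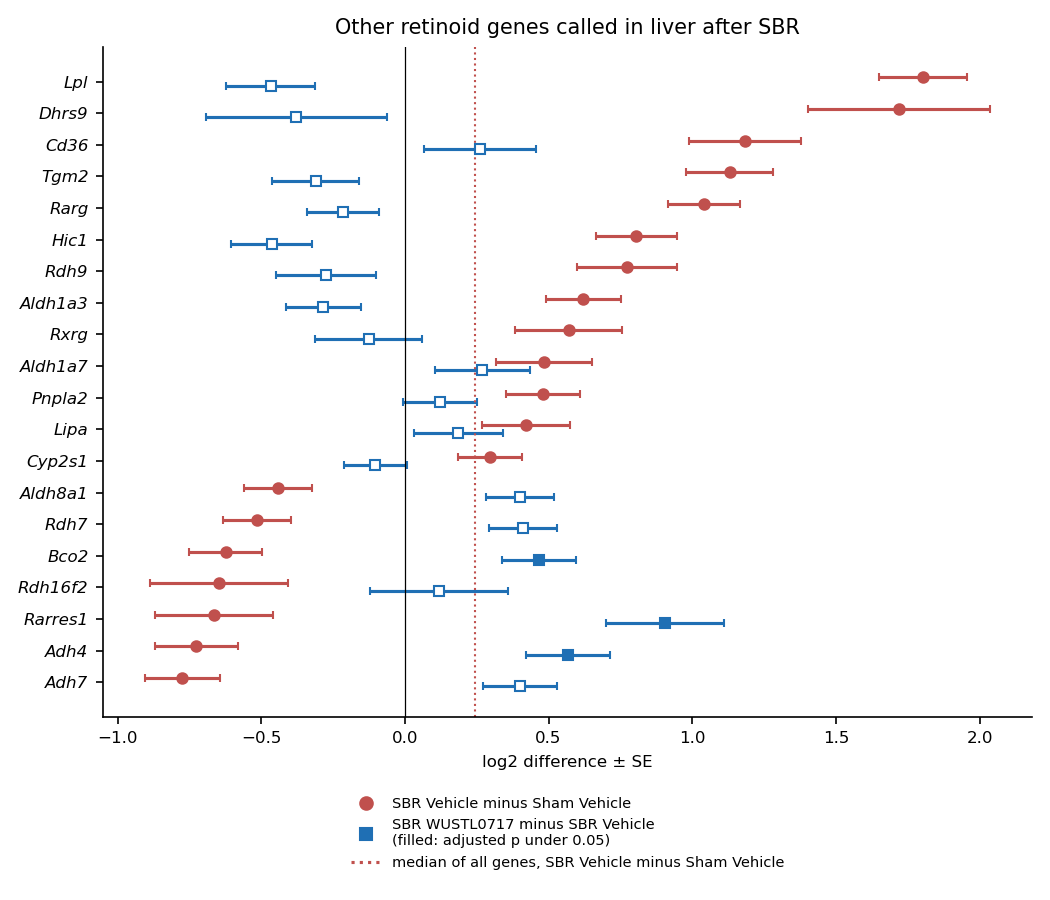
log2 difference with its standard error (horizontal axis) in liver for 20 other retinoid genes called for SBR Vehicle minus Sham Vehicle (circles), each with its SBR WUSTL0717 minus SBR Vehicle difference (squares, filled where called), which shares the SBR Vehicle libraries. Lpl (1.80) lies farthest to the right and Adh7 (-0.77) farthest to the left of those drawn, and the filled squares are Bco2, Rarres1 and Adh4.

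The genes most like each member were chosen by Pearson r over the libraries of a tissue, and the r given here is that of deviations from the group means, a description over libraries that share tissue composition. The search ran over 11927 genes in duodenum, 12291 in ileum and 12365 in liver, and both kinds of r used the same libraries. The top r among so many genes over so few libraries is high through the choice itself, and no link was tested. In duodenum *Isx* was paired with *Nr1h3*, which encodes LXRα (r = 0.95, 11 libraries), and then *Mdh2* (0.87). Duodenal *Aldh1a1* was paired with *Cyp2b10*, a cytochrome P450 (0.78), and *Aldh1a7* (0.95). Ileal *Bco1* was paired with *Tmigd1*, an adhesion protein of enterocytes (0.90), and *Rnf152* (0.78). Ileal *Rbp2* was paired with *Mttp*, which loads lipid onto lipoproteins, and *Tm6sf2* (both 0.93), and ileal *Rbp4* with *Klhdc7a* and *Pltp*, the phospholipid transfer protein (0.96 and 0.94). In liver over 18 libraries *Rbp4* was paired with *Fbp1*, an enzyme of gluconeogenesis, and *Gstk1* (0.91 and 0.92), *Rarb* with *Pgm3* and *Col14a1*, a fibril-associated collagen (0.90 and 0.89), *Lrat* with *Ptprm* and *Nsmaf* (both 0.95), and *Bco1* with *Nudt13* and *Myl12a* (0.94 and 0.92). Pairs for the other members had r between 0.73 and 0.97.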

How the data were processed

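The 40 libraries were bulk ribosomal RNA-depleted RNA-seq of duodenum, ileum and liver. Per the study's methods the authors aligned reads with STAR to GRCm38, counted uniquely aligned, unambiguous reads with featureCounts, calculated edgeR size factors, and loaded TPM values for the later steps. The deposited table holds log2(TPM + 1) per gene after ComBat between batches, whose covariates are not given in the sources used here. Values below 0 come from that step. No counts were used, so depth and counting error are unknown, and the number of libraries limits the precision.

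From these log2 values each tissue's 3 groups were fitted with limma 3.58.1 (R 4.3.3), with a variance trend, over genes with a mean of at least 1, and p-values were adjusted by Benjamini-Hochberg over all genes tested. Regions were compared in 1 fit of 22 intestinal libraries, and whether duodenum and ileum libraries came from 1 mouse is not given in the labels. Errors of differences are standard errors. Relations of *Isx* used two-sided permutation tests with 100000 resamples (SciPy 1.17.1). The fits were tested on simulated data.

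Other genes were named if called within a tissue, if among the 2 smallest p-values in a direction, or if most like a member, and *Scarb1* was named throughout. One gene of the lists is counted but not reported here by name. The members and lists were chosen with earlier results of these data known. Alternatives were no filter, a filter at 3, a pseudocount of 5, libraries centred on their medians, an unmoderated test, library weights, a replicate block and leaving out each library. Gene positions are from GENCODE M21, and upstream windows from RefSeq on GRCm38.p6.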

Additional observations from a re-analysis of the deposited data

Results flagged for a closer look

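Among 52 groups of 4, 5 or 8 libraries of the 8 genes, 7 held a library far from the others of its group by Dixon's test at 95%, and chance gives about 1 in 20 where values are not tied. Most liver *Rbp2* values are tied at their lowest, so the test is void for the pair of liver groups below. In duodenal SBR Vehicle, *Bco1* was lowest in replicate 3 at 1.05 (next 1.73), *Rbp2* was highest in replicate 2 at 6.40 (next 6.21), and *Isx* was highest in replicate 1 at 7.02 (next 6.60). In ileum, *Aldh1a1* was highest in SBR WUSTL0717 replicate 2 at 9.28 (next 7.78), the library with the highest *Rbp4*, and *Aldh1a2* was lowest in SBR Vehicle replicate 2 at 1.44 (next 1.87). In liver, *Rbp2* was highest in SBR Vehicle replicate 6 at 5.50 (next 5.31) and in SBR WUSTL0717 replicate 4 at 5.34, where the other 4 libraries share 5.15.

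The response of *Bco1* to SBR differed between ileum and duodenum by 2.46 in the interaction test, with the limits given above.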

How the results depend on the processing

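Counts of members called moved as follows. Centring gave 0 in place of 1 for duodenal WUSTL0717 against SBR Vehicle, 2 in place of 1 for the same contrast in liver, and 3 in place of 6 for ileum against duodenum in SBR Vehicle. The unmoderated test gave 0 for WUSTL0717 against SBR Vehicle in duodenum and liver, 0 for SBR WUSTL0717 against Sham Vehicle in duodenum and ileum, and 5 in place of 4 for the regions in SBR WUSTL0717. Library weights gave 1 in place of 0 for duodenal SBR, 2 in place of 1 for duodenal SBR WUSTL0717 against Sham Vehicle, 2 in place of 1 for ileal SBR, and 3 in place of 2 for the regions in Sham Vehicle. A filter at 3 gave 3 in place of 5 for liver SBR, 2 in place of 3 for liver SBR WUSTL0717 against Sham Vehicle, 4 in place of 6 and 2 in place of 4 for the regions in SBR Vehicle and SBR WUSTL0717, and 0 for the regional difference in the SBR response. These counts fell because called members with a mean under 3 were no longer tested, and no member still tested lost its call. Leaving out single libraries gave 0 to 1 members for duodenal WUSTL0717, ileal SBR, liver WUSTL0717, the regions in Sham Vehicle and the regional difference in the SBR response, 0 for duodenal SBR, 1 to 2 for ileal and 1 to 3 for liver SBR WUSTL0717 against Sham Vehicle, 4 to 5 for liver SBR and 3 to 4 for the regions in SBR WUSTL0717.

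Libraries with the same replicate number were not paired by the labels, and correlations of their deviations ran from -0.322 to 0.452. With a replicate block, members called were 1 in place of 2 for ileal SBR WUSTL0717 against Sham Vehicle and 0 in place of 2 for the regions in Sham Vehicle, and *Lrat* in duodenal SBR WUSTL0717 against Sham Vehicle (0.11) and *Bco1* and *Lrat* in liver WUSTL0717 against SBR Vehicle (0.0077 and 0.16) changed sign.

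Other changes of sign were in differences that were not called or, where called, under centring, and their cause was not tested. A pseudocount of 5 gave 0.0049 for *Bco1* in duodenal SBR and -0.0075 for *Rarb* in ileal SBR. Centring gave 0.40 and 0.099 for *Bco1* in duodenal SBR Vehicle and SBR WUSTL0717 against Sham Vehicle, -0.067 for *Rarb* in ileal SBR, 0.0034 for *Isx* and 0.00059 for *Aldh1a2* in ileal WUSTL0717 against SBR Vehicle, -0.23 and -0.26 for *Rbp2* in liver SBR Vehicle and SBR WUSTL0717 against Sham Vehicle, -0.011 for *Cyp2s1* in liver SBR, and -0.21, -0.097 and -0.085 for *Rbp4*, *Aldh1a1* and *Aldh1a2* in liver SBR WUSTL0717 against Sham Vehicle. Between regions it gave -0.048 and -0.38 for *Isx* and -0.71 and -0.63 for *Aldh1a2* in SBR Vehicle and SBR WUSTL0717. Library weights gave 0.018 for *Aldh1a2* in duodenal WUSTL0717 against SBR Vehicle, and 0.014 and 0.051 for *Lrat* and *Aldh1a2* in ileal SBR. The duodenal r of *Isx* with *Bco1* was 0.35 after centring and 0.064 without 2 libraries. Leaving out single libraries turned differences that were not called: *Bco1* in duodenal SBR ran from -0.074 to 0.17, *Aldh1a2* in duodenal WUSTL0717 against SBR Vehicle from -0.14 to 0.17, *Lrat* in duodenal SBR WUSTL0717 against Sham Vehicle from -0.89 to 0.25, *Lrat*, *Aldh1a2* and *Rarb* in ileal SBR from -0.35 to 0.37, -0.19 to 0.091 and -0.21 to 0.26, *Isx* and *Aldh1a2* in ileal WUSTL0717 against SBR Vehicle from -0.058 to 0.093 and -0.13 to 0.082, *Aldh1a2* and *Rarb* in ileal SBR WUSTL0717 against Sham Vehicle from -0.21 to 0.085 and -0.032 to 0.44, and *Lrat* in liver WUSTL0717 against SBR Vehicle from -0.10 to 0.050.

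Counts of all genes called also moved. Over the 7 settings other than left-out libraries, SBR Vehicle against Sham Vehicle called 0 to 2579 genes in duodenum (0 as reported), 5 to 276 in ileum (55) and 4180 to 10458 in liver (6666). WUSTL0717 against SBR Vehicle called 2 to 98 (41), 1 to 19 (11) and 0 to 3132 (655), and SBR WUSTL0717 against Sham Vehicle called 2 to 1042 (111), 31 to 773 (341) and 3117 to 8381 (4561).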
